A study of Rattus norvegicus with 84 samples.

Results

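Lipid transport in extracellular vesicles (EVs) after stroke was followed through 9 genes, Apoe, Apod, Clu, Abca1, Abcg1, Lpl, Npc2, Lrp1 and Plin2, which were picked by name from the 18782 annotated rat genes of the mRNA count table. EVs are membrane particles that cells release and that carry RNA. EV mRNA was sequenced from the brain and the plasma of 21 male Sprague-Dawley rats. Each rat gave 1 brain and 1 plasma library, so 42 libraries entered here. In rats with a stroke, the brain tissue was the hemisphere on the side of the stroke. The paper names no hemisphere for the healthy rats. All 9 genes passed the filter on low counts in brain EVs, and 8 of 9 passed it in plasma EVs, where Apod had 2 reads in all.

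The rats formed 7 groups of 3. Healthy rats were adult males, with no exact age given, and had no operation described. Control rats, 8 to 12 weeks old, had the middle cerebral artery blocked for 90 min (transient stroke) and received saline by the carotid artery 3 days later. The hNSCs groups had the same stroke and received 200000 human neural stem cells, from 1 fetal telencephalon line, by the same route on the same day. Control and hNSCs rats were killed 4, 10 or 31 days after stroke, which is 1, 7 or 28 days after the injection. No gene was altered in any rat, and reads of the human cells were not analysed here. The plasma is named serum in part of the sample descriptions.

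In the brain, cholesterol moves between cells on lipoprotein particles built around Apoe, which astrocytes and activated microglia release. Abca1 and Abcg1 load these particles with cholesterol, and Lrp1 takes them up. Npc2 helps to move the sterol out of the lysosome of the receiving cell. When phagocytes digest myelin, this route is known to be switched on, and lipid that is not exported is stored in droplets coated by Plin2. In the body, Apoe and many other apolipoproteins are made mainly by the liver.

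Libraries held 13221500 to 37651700 counts in brain EVs and 11878400 to 49824800 in plasma EVs. The share on annotated genes was 3.18% to 51.9% for brain libraries and 45.1% to 75.6% for plasma libraries, the rest lying on transcripts that no annotation names. The share in brain moved with the groups, from 7.11% to 20.9% in healthy rats to 30.3% to 43.0% in controls at 31 days. Levels between libraries are therefore given as CPM, the counts of a gene scaled to a fixed total of annotated counts and adjusted by edgeR's TMM factors. Markers of neurons, astrocytes, oligodendrocytes and microglia were all detected in brain EVs. In brain EVs, 2 libraries within the control group at 10 days and 1 with hNSCs stood apart. Replicate 2 had summed microglia markers of 1372 CPM and oligodendrocyte markers of 12500 CPM, and replicate 1 had microglia markers of 165 CPM, against 65.3 to 119 CPM in healthy rats. Replicate 3 of the hNSCs group at 10 days had the lowest depth in brain, with 569136 annotated counts, 3.18% of its total, over 6190 detected genes. In plasma EVs, replicate 2 of the control group at 4 days stood apart, with summed hepatocyte markers of 1048 CPM against 16769 and 27514.5 CPM in the other 2 rats. The share of annotated counts on hemoglobin genes in plasma also moved with the groups. It was 3.60% to 9.13% in healthy rats, 1.39% to 2.88% in controls at 4 days and 12.0% to 15.4% in controls at 10 days. At 31 days it was 5.98% to 15.2% in controls and 19.2% to 24.8% with hNSCs.

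Levels of different genes were set side by side only per transcript length, as the FPKM values, fragments scaled to transcript length and library size, that the authors deposited. Apoe was the highest of the 9 in all 21 brain libraries and above Clu, the next gene, in 20 of 21 plasma libraries. Its median FPKM over the 21 libraries was 130 in brain EVs, the rank 2 of 18782 genes, and 547 in plasma EVs, the rank 57. In brain EVs the order of median FPKM below Apoe was Clu at 5.23, Apod at 4.66, Lrp1 at 2.97, Npc2 at 2.30, Abca1 at 0.980, Plin2 at 0.599, Abcg1 at 0.587 and Lpl at 0.132. Clu was above Apod in 12 of 21 libraries, and Plin2, whose median was the higher one, was above Abcg1 in 4 of 21, so neither pair had a stable order. Below Apoe, the ranges of all neighbours overlapped. In plasma EVs the order of median FPKM was Clu at 35.7, Plin2 at 15.3, Npc2 at 11.2, Lpl at 3.94, Lrp1 at 3.48, Abcg1 at 1.02 and Abca1 at 0.656, with Apod at 0. Lpl and Lrp1 could not be ordered in plasma, since Lpl was above Lrp1 in 10 of 21 libraries. By median, Plin2 and Lpl stood above Abca1 and Abcg1 in plasma EVs.

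**Figure D1:**
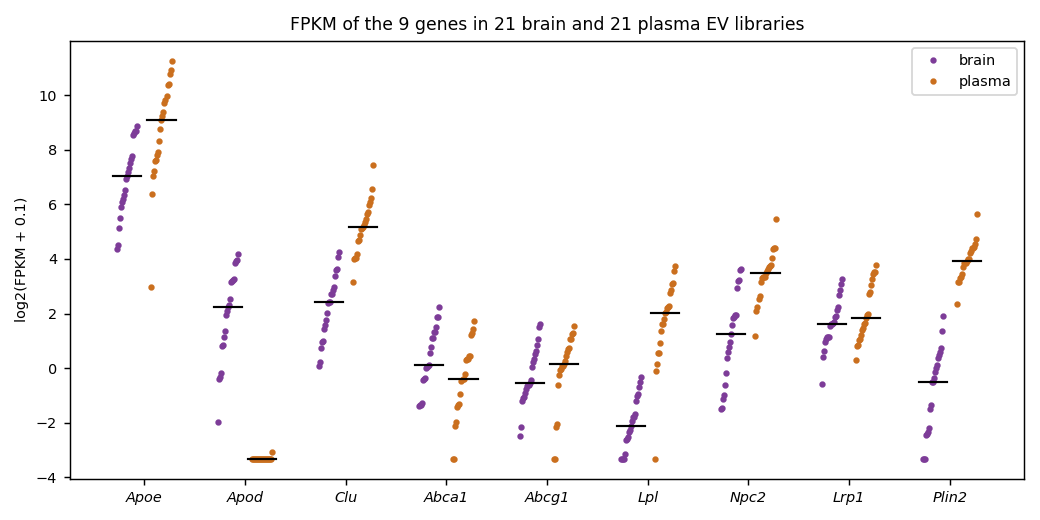
Levels of the 9 genes on the log2(FPKM + 0.1) scale (y axis) in 21 brain EV libraries (purple) and 21 plasma EV libraries (orange). Each point is 1 library, sorted within a gene, and the black line is the median. Apoe has the highest median in both compartments, and Apod is at 0 in 20 of 21 plasma libraries.

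The first question was how the genes changed in brain EVs after stroke, with control rats set against healthy rats. Npc2 was higher at 10 days, and it was the single gene of the 9 to pass the adjusted threshold with 3 rats a group. The fitted log2 fold change was above 0 on each day for 8 of 9 genes, all but Lrp1, and no other value passed. That of Plin2 at 10 days turned to -0.15 without control replicate 2. A gene was called where edgeR's quasi-likelihood test gave a Benjamini-Hochberg adjusted p under 0.05, over all genes tested, and a change over 1.5-fold.

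Apoe, the main cholesterol carrier of the brain, was at 1591, 1729 and 2266 CPM in the brain EVs of healthy rats. In controls at 4 days it was at 3494, 4615 and 7559 CPM, at 10 days at 1875, 4158 and 8071 CPM, and at 31 days at 2595, 3282 and 4887 CPM. All controls at 4 and 31 days lay above all healthy rats, and at 10 days replicate 1 lay within the healthy range. The log2 fold change against healthy was 1.49 ± 0.45 (SE, n = 3 against 3, edgeR adjusted p = 0.110) at 4 days, 1.34 ± 0.45 at 10 days (edgeR adjusted p = 0.212) and 0.95 ± 0.44 at 31 days (edgeR adjusted p = 0.659). Over both stroke arms, 15 of 18 libraries lay above every healthy library, a count reached by 4.35% of all genes tested.

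Apod, a small lipid carrier of glia that is unrelated to Apoe in structure, showed a larger gap. It was at 10.1, 22.8 and 38.5 CPM in healthy brain EVs and at 96.6, 169 and 214 CPM in controls at 4 days. It was at 52.0, 140 and 241 CPM at 10 days and at 61.5, 88.3 and 140 CPM at 31 days. No control library overlapped the healthy range on any day, and 17 of the 18 libraries of both stroke arms lay above it, a count reached by 1.40% of all genes tested. Its log2 fold change was 2.72 ± 0.68 at 4 days (edgeR adjusted p = 0.0547), 2.57 ± 0.67 at 10 days (edgeR adjusted p = 0.0863) and 1.99 ± 0.66 at 31 days (edgeR adjusted p = 0.483).

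Clu, a secreted chaperone and apolipoprotein, moved less. It was at 122, 131 and 186 CPM in healthy rats and at 207, 213 and 317 CPM in controls at 4 days, groups that do not overlap. The log2 fold change was 0.74 ± 0.33 at 4 days (edgeR adjusted p = 0.286), 0.88 ± 0.34 at 10 days (edgeR adjusted p = 0.269) and 0.39 ± 0.33 at 31 days (edgeR adjusted p of 1).

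Abca1, the pump that hands cholesterol to lipid-poor Apoe, was at 87.9, 118 and 221 CPM in healthy rats. It was at 336, 452 and 482 CPM in controls at 4 days, at 245, 751 and 816 CPM at 10 days and at 159, 260 and 343 CPM at 31 days. Groups did not overlap at 4 and 10 days and overlapped at 31 days. Its log2 fold change was 1.58 ± 0.49 at 4 days (edgeR adjusted p = 0.119), 2.09 ± 0.50 at 10 days (edgeR adjusted p = 0.0533) and 0.85 ± 0.48 at 31 days (edgeR adjusted p = 0.900). Abcg1, which loads larger particles, had a smaller difference, with 53.9, 54.9 and 72.0 CPM in healthy rats, 67.3, 72.1 and 98.5 CPM in controls at 4 days and 87.8, 108 and 119 CPM at 10 days. Its log2 fold change was largest at 10 days, at 0.80 ± 0.40 (edgeR adjusted p = 0.421).

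Npc2 was the 1 gene called. It was at 12.4, 20.3 and 24.4 CPM in healthy rats, at 67.8, 77.6 and 80.4 CPM in controls at 4 days and at 74.0, 79.8 and 138 CPM at 31 days. At 10 days it was at 35.4, 78.5 and 502 CPM, so that 1 rat set the mean. No control library overlapped the healthy range. The log2 fold change was 3.45 ± 0.78 at 10 days (edgeR adjusted p = 0.0469), 2.00 ± 0.74 at 4 days (edgeR adjusted p = 0.189) and 2.37 ± 0.75 at 31 days (edgeR adjusted p = 0.483). The rat with 502 CPM was replicate 2 of the controls at 10 days, the library with 1372 CPM of microglia markers. Without it the log2 fold change of Npc2 at 10 days was 1.60 ± 0.65 and the call was lost (edgeR adjusted p = 0.688). The call was also lost without healthy replicate 1, 2 or 3 (edgeR adjusted p of 0.233, 0.234 and 0.247).

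Plin2 and Lpl were low. Plin2 was at 0, 4.21 and 9.28 CPM in healthy rats and at 37.8, 51.8 and 119 CPM in controls at 4 days, groups that do not overlap, with a log2 fold change of 3.89 ± 1.42 (edgeR adjusted p = 0.181). At 10 days it was at 0, 8.65 and 41.5 CPM, with a log2 fold change of 1.84 that turned to -0.15 without control replicate 2, and at 31 days at 16.7, 18.4 and 26.8 CPM. Lpl, the lipase that frees fatty acids from lipoproteins and that microglia also make, was at 0, 2.87 and 15.9 CPM in healthy rats and at 11.5, 13.1 and 33.1 CPM in controls at 4 days (log2 fold change 1.60 ± 1.69, edgeR adjusted p = 0.848). It had no count in 4 of 21 brain libraries.

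Lrp1, the large receptor that takes up Apoe particles, had overlapping groups. It was at 860, 1564 and 1856 CPM in healthy rats and at 1026, 1141 and 1223 CPM in controls at 4 days. Its log2 fold change was -0.34 ± 0.29 at 4 days (edgeR adjusted p = 0.770) and -0.65 ± 0.29 at 31 days (edgeR adjusted p = 0.638) on the CPM scale, and 0.55 and 1.16 on the log2(FPKM + 1) scale at those days. The median of all genes on that FPKM scale was itself shifted by 0.50 at 4 days and 1.33 at 31 days.

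**Figure D2:**
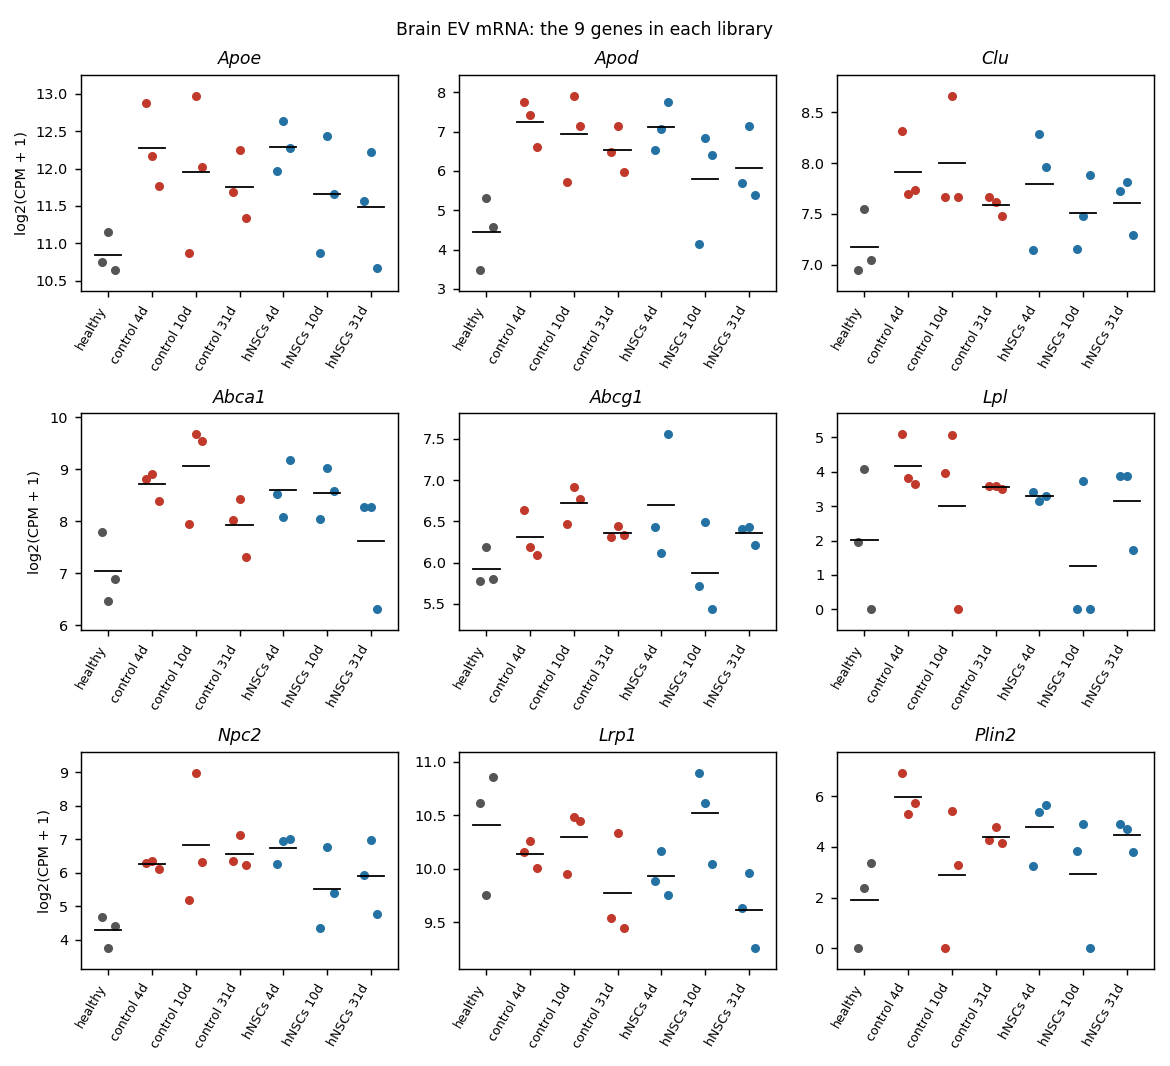
Brain EV levels of the 9 genes on the log2(CPM + 1) scale (y axis) in healthy (grey), control (red) and hNSCs (blue) rats by day after stroke (x axis). Each point is 1 library and the black line is the mean of 3. Apod and Npc2 in controls lie above the healthy rats on every day, while Lrp1 overlaps them.

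At 4 days, 0 of 9 genes were called by edgeR, beside 0.861% of all 14515 genes tested. At an unadjusted p under 0.05, 6 of 9 were higher and 0 lower, beside 8.52% of all genes higher and 6.31% lower. Groups did not overlap with controls higher for 6 of 9 genes, beside 13.9% of all genes. DESeq2 called 3 of 9, namely Apoe, Apod and Plin2, beside 6.24% of its 14488 genes. The median log2 fold change was 1.58 over the 9 genes and 0.05 over all genes.

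At 10 days 1 of 9 genes was called, beside 0.572% of all genes, and 5 of 9 were higher at an unadjusted p under 0.05, beside 7.54%. Groups did not overlap with controls higher for 5 of 9, beside 7.05%. DESeq2 called 3 of 9 at 10 days, Apod, Abca1 and Npc2, beside 4.26%. The count at 10 days rested on single libraries. Without control replicate 1, whose microglia sum was the lowest of the 3, edgeR called 4 of 9, Apoe at a log2 fold change of 1.74, Apod at 3.00, Abca1 at 2.48 and Npc2 at 3.98. It called 1 of 9, Npc2, without control replicate 3, and 0 of 9 without control replicate 2 or without any 1 of the healthy rats. At 31 days 0 of 9 were called by edgeR, beside 0.00689%, with 3 of 9 higher and 1 lower at an unadjusted p under 0.05, beside 5.3% and 1.84% of all genes. Groups did not overlap with controls higher for 5 of 9 at 31 days, beside 18.9%, and DESeq2 called 0 of 9, beside 1.31%. For the mean of the 3 days against healthy, edgeR called 0 of 9, beside 0.186%, with 6 of 9 higher at an unadjusted p under 0.05, beside 7.05%, and 2 of 9 not overlapping, beside 2.62%. For that mean DESeq2 called 4 of 9, Apoe, Apod, Abca1 and Npc2, beside 5.16%. The healthy rats are shared by all of these comparisons. In simulated counts for 4 days against healthy in brain, 15% of genes changed 4-fold and 51.0% of genes changed 16-fold were called.

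**Figure D3:**
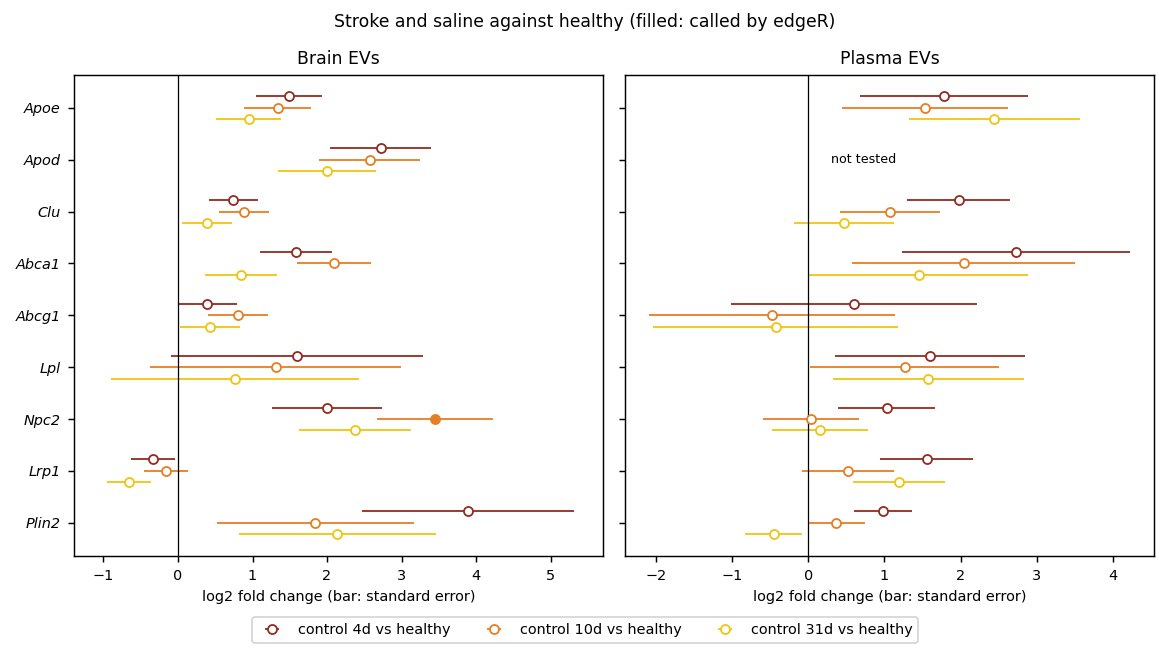
Log2 fold changes (x axis) of the 9 genes in control rats at 4, 10 and 31 days against healthy rats, in brain EVs (left) and plasma EVs (right), with bars of 1 standard error from edgeR. The filled point, Npc2 in brain at 10 days, is the single call, and Apod was not tested in plasma.

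The days after stroke were compared next. In brain EVs 0 of 9 genes were called at 10 days against 4 days or at 31 days against 4 days, beside 0.0% and 0.248% of all genes, none of the 9 passed an unadjusted p under 0.05, and DESeq2 called 0 of 9 in both, beside 0.696% and 1.68%. Clu, Lpl and Plin2 lay lower in every control at 31 days than in every control at 4 days, beside 10.1% of all genes, and the log2 fold change was largest for Plin2, at -1.75 ± 1.29 (edgeR adjusted p of 1).

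Levels in brain EVs moved with those of cell type markers, a check added after the values were seen. Over the 21 brain libraries, log2 CPM of Apoe had r = 0.89 and rho = 0.93 with the summed microglia markers (permutation p = 1e-05 for each, the smallest that 100000 permutations can give, adjusted p of 0.00102 and 0.000744 over all genes). Npc2 had r = 0.89 and rho = 0.84 (permutation p = 1e-05 and 2e-05, adjusted p of 0.00102 and 0.00110), Abca1 r = 0.86 and rho = 0.82, and Apod r = 0.79 and rho = 0.84. With group means removed, r was 0.86 for Apoe, 0.92 for Npc2, 0.75 for Abca1 and 0.60 for Apod, and without the 2 libraries farthest from the median of the marker sum it was 0.90, 0.84, 0.78 and 0.78. Lrp1 had r = 0.18 and rho = 0.28 with the same sum (permutation p = 0.431 and 0.217). Its r was 0.57 with group means removed and 0.37 without those 2 libraries.

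The microglia sum took in all 8 markers of its list and ranged from 65.3 to 119 CPM in healthy rats, from 335 to 559 CPM in controls at 4 days, from 165 to 1372 CPM at 10 days and from 216 to 382 CPM at 31 days. The macrophage sum, with 5 of its 6 markers detected in healthy rats and 6 of 6 in controls at 4 days, ranged from 18.0 to 25.6 CPM in healthy rats and from 252 to 819 CPM in controls at 4 days. Among the lists compared, Plin2 had its highest r with this one, r = 0.74 and rho = 0.82 (permutation p = 2e-05 and 3e-05, adjusted p of 0.000971 and 0.00127). With the same macrophage sum r was higher for Apoe at 0.86, Apod at 0.80 and Npc2 at 0.76, and it was 0.71 for Abca1. The astrocyte sum, over all 8 markers, ranged from 1622 to 1877 CPM in healthy rats and from 3815 to 4263 CPM in controls at 4 days. With it, Npc2 had r = 0.79 and rho = 0.75 (permutation p = 1e-05 and 0.000120, adjusted p of 0.0363 and 0.0531) and Apod r = 0.76 and rho = 0.63 (permutation p = 0.000130 and 0.00290, adjusted p of 0.0432 and 0.0972). Among all genes, Npc2 had the rank 9 by r with the astrocyte sum and the rank 20 with the microglia sum. Apoe had r = 0.66 with the oligodendrocyte sum, 0.83 with group means removed and 0.50 without the 2 libraries farthest from the median of that sum. By Pearson's r, the adjusted p was under 0.05 with a positive r for 5 of 9 genes with the microglia sum, 7 with macrophages, 2 with astrocytes and 3 with oligodendrocytes, and with a negative r for 6 with neurons. The share of all genes with such a p is not given here, so these counts do not set the 9 genes apart. With the macrophage sum, Abcg1 had a permutation adjusted p of 0.0325 at the rank 927 of 14515 genes by r. Against the neuron sum, which was at 4522 to 5774 CPM in healthy rats and 1908 to 3346 CPM in controls at 4 days, Apoe had r = -0.84 and Abca1 r = -0.86. In all, 85 such relations were computed. In EVs from whole tissue, a change in the number of cells of a type and in RNA per cell cannot be told apart, and the part of cell type shares in the results was not tested.

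**Figure D4:**
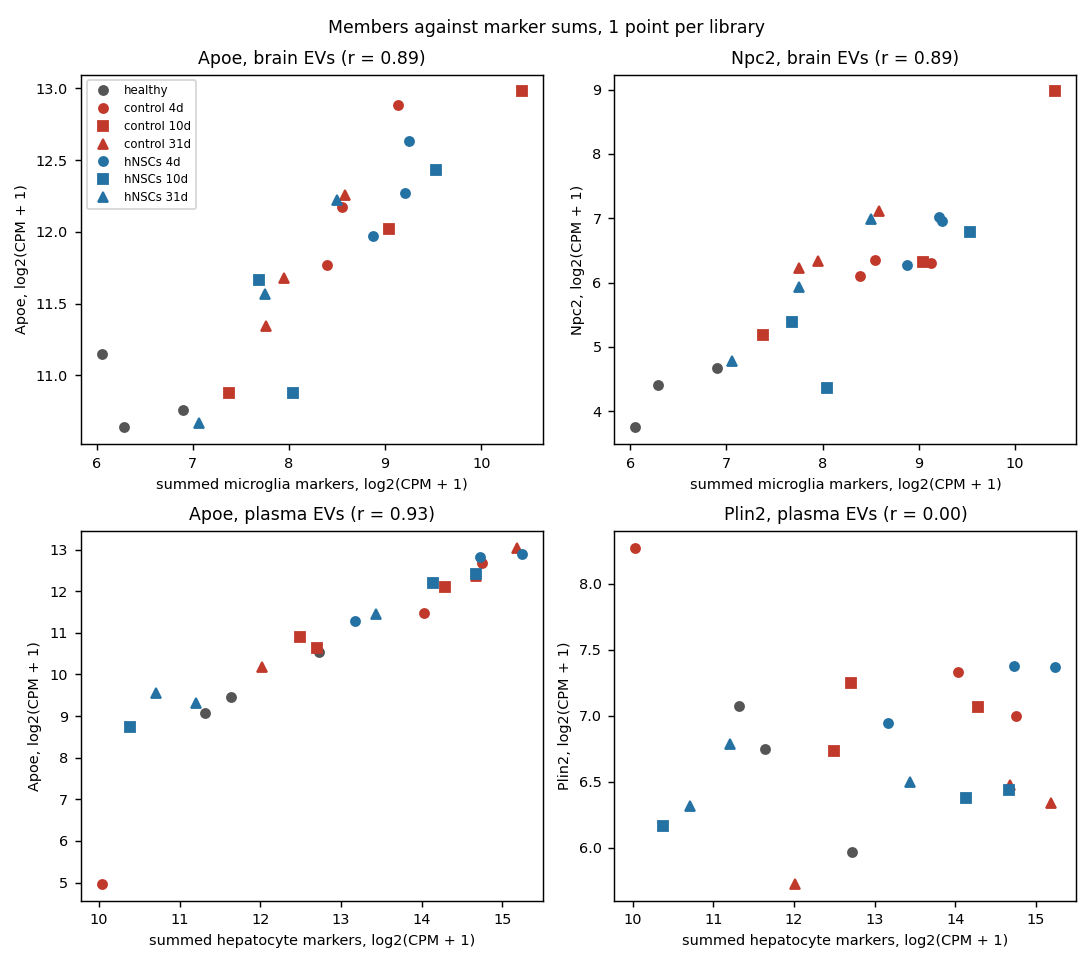
Levels of a gene (y axis) against the summed CPM of a marker list (x axis), both as log2(CPM + 1), with 1 point per library over 21 libraries, for Apoe and Npc2 in brain EVs with microglia markers and Apoe and Plin2 in plasma EVs with hepatocyte markers. Colours give healthy (grey), control (red) and hNSCs (blue) rats, and circles, squares and triangles give 4, 10 and 31 days. Apoe is higher where either marker sum is higher, and Plin2 has r = 0.00 with the hepatocyte sum.

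Pairs of the 9 genes were compared too. Of 36 pairs in brain EVs, 17 had a Pearson r over 0.5 over the 21 libraries, or 47.2%, beside 13.7% of all gene pairs. A negative r was held by 6, or 16.7%, beside 31.1% of all pairs, each of the 6 a pair with Lrp1. Of 28 pairs in plasma EVs, 7 had r over 0.5, or 25.0%, beside 3.68% of all pairs. There 12 were negative, or 42.9%, near the 41.1% of all pairs. The highest in brain were Apoe with Apod at 0.90, Apoe with Npc2 at 0.86 and Apod with Npc2 at 0.83. The genes most like Apoe in brain EVs, among 14515, were Aebp1 (r = 0.95) and Col1a2 (r = 0.95). Those most like Abca1 were Mpeg1 (r = 0.91), a gene of macrophages, and Shc1 (r = 0.91), and those most like Npc2 were Ftl1 (r = 0.91), the ferritin light chain, and Cotl1 (r = 0.89). Those most like Plin2 were Adcy7 and Pstpip1 (r = 0.92 for each). These libraries share groups and depth, and the values are descriptions.

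Abca1 and Npc2, with the highest fold changes of the efflux and lysosomal genes at 10 days, are shown with their promoters, since the liver X receptor (LXR), a sensor of oxidised sterols, is known to act on Abca1 through a direct repeat with 4 bases between the half-sites. RefSeq promoters of build GRCr8, from 250 bases before to 50 after the start, were found for 6 of the 9 genes, and for Clu, Abcg1 and Lpl none was used here. They were searched on both strands for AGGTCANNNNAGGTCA with up to 3 mismatches, a limit set after the sequences were seen. Matches are in capitals:
Abca1, chr5:72596424-72596723, minus strand: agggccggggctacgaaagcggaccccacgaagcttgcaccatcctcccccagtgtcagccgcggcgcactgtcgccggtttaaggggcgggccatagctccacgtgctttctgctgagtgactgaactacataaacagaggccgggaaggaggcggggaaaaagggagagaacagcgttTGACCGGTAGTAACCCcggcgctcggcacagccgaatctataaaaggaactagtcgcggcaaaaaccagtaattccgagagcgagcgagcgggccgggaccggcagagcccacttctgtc
Npc2, chr6:110149196-110149495, minus strand: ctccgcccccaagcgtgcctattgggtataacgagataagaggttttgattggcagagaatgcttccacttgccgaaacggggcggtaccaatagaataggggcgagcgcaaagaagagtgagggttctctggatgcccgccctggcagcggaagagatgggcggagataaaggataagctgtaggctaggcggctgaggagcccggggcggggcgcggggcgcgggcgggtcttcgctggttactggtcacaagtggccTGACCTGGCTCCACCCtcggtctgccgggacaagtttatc
The match in Abca1 runs from base -70 to -55 before the start and reads in reverse. The match in Npc2 lies after the start, at bases 10 to 25. Such a match was held by 21.9% of 33365 RefSeq promoters and by 2 of the 6 genes with a promoter. The lysosomal motif TCACGTG was in 1 of the 6, Plin2, and in 3.21% of all promoters.

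The second question was the effect of the hNSCs against saline. In brain EVs none of the 9 genes was called. At 4 days after stroke, Apoe was at 4009, 4947 and 6347 CPM with hNSCs and Npc2 at 76.1, 123 and 129 CPM, against 3494 to 7559 CPM and 67.8 to 80.4 CPM in controls. Lpl was lower in all 3 rats with hNSCs than in all 3 controls on that day, beside 6.82% of all genes, at 7.96, 8.85 and 9.65 CPM, with a log2 fold change of -1.12 ± 1.67 (edgeR adjusted p of 1). At 10 days Npc2 was at 19.5, 40.7 and 109 CPM with hNSCs, against 35.4, 78.5 and 502 CPM in controls, and Abcg1 at 42.2, 51.5 and 88.7 CPM against 87.8, 108 and 119 CPM. Both genes overlapped between the groups. Without hNSCs replicate 3, the library of lowest depth, the log2 fold change at 10 days was -1.59 for Npc2 (edgeR adjusted p = 0.531) and -0.53 for Abcg1 (edgeR adjusted p = 0.675). Without control replicate 2, the rat with 502 CPM, that of Npc2 was -0.02 (edgeR adjusted p of 1). The log2 fold change of Npc2 at 10 days was -1.87 ± 0.74 (edgeR adjusted p = 0.329), and that of Abcg1 was -0.79 ± 0.41 (edgeR adjusted p = 0.399).

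Averaged over the days, the effect of hNSCs on brain EVs was -0.21 ± 0.25 (log2) for Apoe, -0.50 ± 0.37 for Apod, -0.28 ± 0.27 for Abca1, -0.60 ± 0.41 for Npc2 and -0.05 ± 0.17 for Lrp1. All 9 estimates were below 0, as was the median of all genes at -0.20, and the smallest edgeR adjusted p among the 9 was 0.840. edgeR called 0 of 9 at 4, 10 and 31 days and for the mean, where it also called 0.0% of all genes. At an unadjusted p under 0.05, 1 of 9 was lower at 10 days, Npc2, beside 10.8% of all genes, and 0 of 9 passed at 4 or 31 days or for the mean. DESeq2 called 0 of 9 in each, beside 1.46%, 4.92%, 0.00597% and 2.37%. The effect at 10 days minus that at 4 days was -2.41 ± 1.02 for Npc2 (edgeR adjusted p = 0.477) and -1.30 ± 0.57 for Abcg1 (edgeR adjusted p = 0.509). These were the 2 of 9 genes lower at an unadjusted p under 0.05 in that test, beside 5.66% of all genes, and edgeR called 0 of 9 for either later day against 4 days, beside 0.0% of all genes.

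In plasma EVs, 8 genes were tested. Apoe, the carrier with the highest level, was at 541, 705 and 1486 CPM in healthy rats. It was at 30.4, 2869 and 6536 CPM in controls at 4 days, at 1599, 1923 and 4373 CPM at 10 days and at 1163, 5271 and 8458 CPM at 31 days. The rat at 30.4 CPM was replicate 2 of the controls at 4 days, the library with few hepatocyte markers. The groups overlapped at 4 and 31 days and did not at 10 days. The log2 fold change was 1.79 ± 1.10 at 4 days (edgeR adjusted p = 0.764), or 2.37 without that library (edgeR adjusted p = 0.932), 1.53 ± 1.10 at 10 days (edgeR adjusted p = 0.869) and 2.45 ± 1.13 at 31 days (edgeR adjusted p = 0.844).

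Abca1 was low in plasma EVs and no comparison called it. It was at 8.37, 10.8 and 11.2 CPM in healthy rats, at 22.4, 87.1 and 91.9 CPM in controls at 4 days, at 26.8, 39.4 and 58.9 CPM at 10 days and at 4.33, 36.4 and 42.2 CPM at 31 days. Groups did not overlap at 4 and 10 days, and 15 of the 18 libraries of both stroke arms lay above every healthy one, a count reached by 0.584% of all genes tested. The other 3 lay below every healthy one, at 4.33 CPM and, in 2 of them, with no count. On the log2 scale the difference was 2.73 ± 1.5 at 4 days (edgeR adjusted p = 0.742) and 2.04 ± 1.46 at 10 days (edgeR adjusted p = 0.871). Lrp1 was at 88.7, 143 and 221 CPM in healthy rats and at 130, 558 and 644 CPM in controls at 4 days, with a log2 fold change of 1.56 ± 0.61 (edgeR adjusted p = 0.742).

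Clu was at 55.0, 76.3 and 302 CPM in healthy plasma EVs and at 236, 422 and 1046 CPM in controls at 4 days, with a log2 fold change of 1.98 ± 0.68 (edgeR adjusted p = 0.715). Its highest value again came from replicate 2, which also held the highest plasma levels of Npc2, at 190 CPM, and Plin2, at 308 CPM, and no count of Lpl. That library had summed macrophage markers of 4893 CPM, against 1301 CPM in each of the other 2 rats. Without it, the log2 fold change at 4 days was 1.19 for Clu (edgeR adjusted p = 0.932), 0.51 for Plin2 (edgeR adjusted p = 0.934) and 2.19 for Lpl (edgeR adjusted p = 0.932). Plin2 was at 61.5, 107 and 134 CPM in healthy rats and at 127, 160 and 308 CPM in controls at 4 days (log2 fold change 0.98 ± 0.38, edgeR adjusted p = 0.742). It was lower at 31 days, at 52.0, 79.9 and 87.8 CPM, than at 4 days with no overlap, a log2 fold change of -1.44 ± 0.38 (edgeR adjusted p = 0.366), which DESeq2 called (-1.37 ± 0.37, DESeq2 adjusted p = 0.00417).

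Lpl was at 9.04, 28.0 and 28.2 CPM in healthy plasma EVs and at 28.4, 76.9 and 89.3 CPM in controls at 31 days, groups that do not overlap, with a log2 fold change of 1.58 ± 1.25 (edgeR adjusted p of 1). Npc2 and Abcg1 overlapped between healthy and control rats on every day in plasma EVs. Abcg1 had no count in 2 of 21 plasma libraries, and its log2 fold changes of 0.60, -0.48 and -0.43 at 4, 10 and 31 days had standard errors of 1.62, 1.62 and 1.61.

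**Figure D5:**
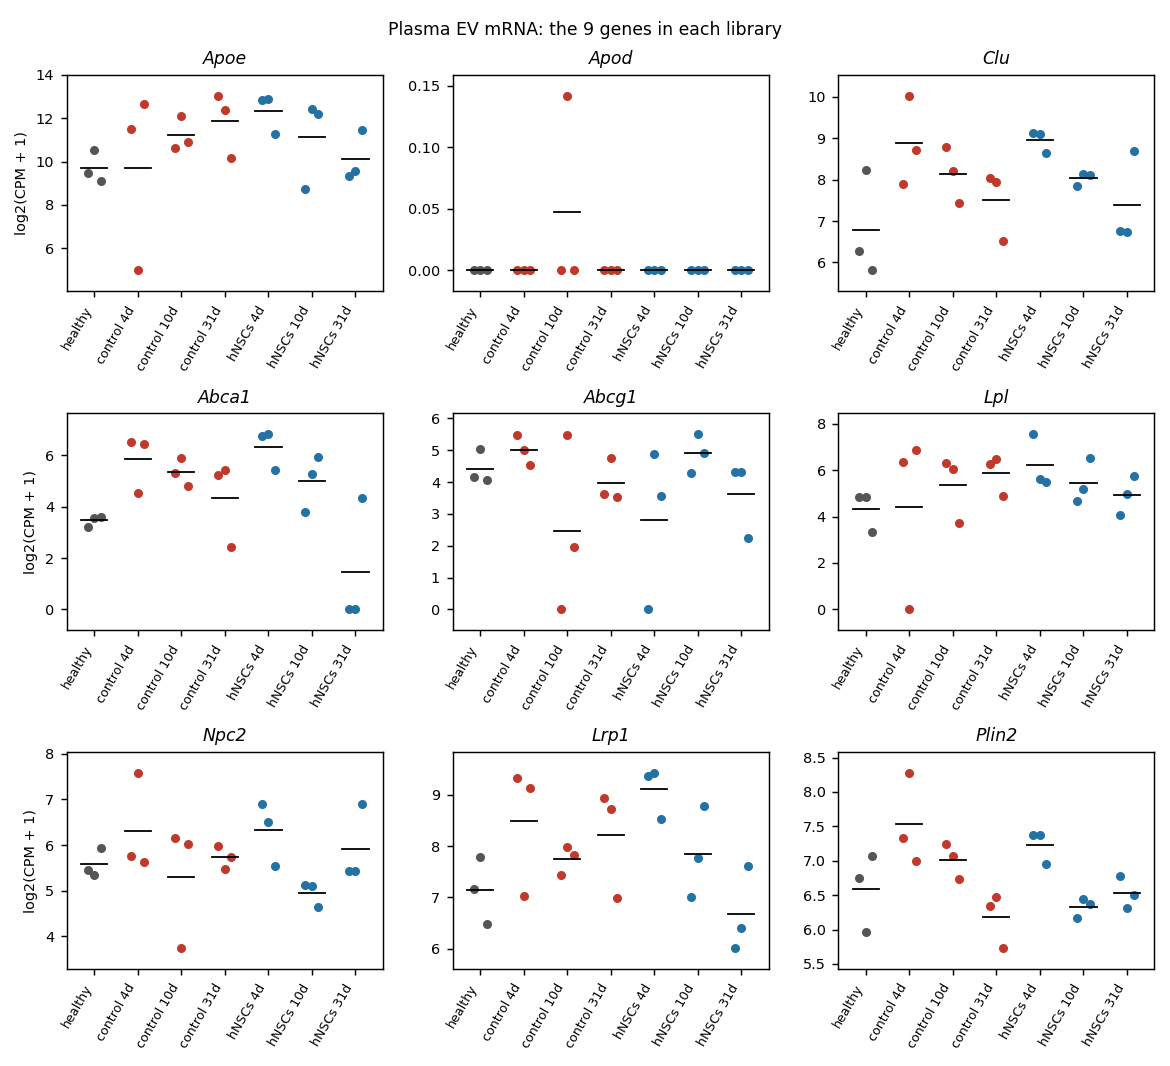
Plasma EV levels of the 9 genes on the log2(CPM + 1) scale (y axis) in healthy (grey), control (red) and hNSCs (blue) rats by day after stroke (x axis). Each point is 1 library and the black line is the mean of 3. Apod is at or next to 0 throughout, and Apoe and Lpl drop in a single control library at 4 days.

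Of the 8 genes tested in plasma EVs, edgeR called 0 at 4 days, beside 0.0679% of 14720 genes, and 0 at 10 days, at 31 days and for the mean of the days, where it called 0.0% of all genes. At an unadjusted p under 0.05, 3 of 8 were higher at 4 days, Clu, Lrp1 and Plin2, beside 1.4% of all genes, 0 of 8 at 10 days and for the mean, and 1 of 8 at 31 days, Apoe, beside 0.971%. DESeq2 called 0 of 8 in these comparisons, beside 5.88%, 7.85%, 4.31% and 6.07%. Groups did not overlap with controls higher for 1 of 8 at 4 days, 2 of 8 at 10 days and 1 of 8 at 31 days, beside 4.06%, 3.64% and 4.34% of all genes. Between days, edgeR called 0 of 8 at 10 against 4 days, beside 0.387% of all genes, and 0 of 8 at 31 against 4 days, beside 0.170%. At an unadjusted p under 0.05 none of the 8 differed at 10 against 4 days and 2 were lower at 31 against 4 days, Clu and Plin2, beside 2.0% of all genes, and DESeq2 called 0 and 1, beside 9.61% and 6.06%. Plin2 was the 1 gene of 8 without overlap at 31 against 4 days, beside 4.49%. The median log2 fold change at 4 days was 1.58 over the 8 genes and -0.12 over all genes. In simulated counts for the same comparison, 1.03% of genes changed 4-fold and 25.8% of genes changed 16-fold were called.

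Log2 CPM of Apoe in plasma EVs had r = 0.93 and rho = 0.98 with the summed hepatocyte markers over 21 libraries (permutation p = 1e-05 for each, adjusted p of 0.00101 and 0.000856), r = 0.94 with group means removed and r = 0.98 without the 2 farthest libraries. With the choroid plexus markers, a list that holds Ttr, which the liver also makes, Apoe had r = 0.89 and rho = 0.86 (permutation p = 1e-05 for each, adjusted p of 0.00350 and 0.00460). Only 2 to 4 of the 6 markers of that list were detected in any plasma group, and Clic6 had no count in any plasma library. Among all genes Apoe had the rank 3 with the choroid plexus sum and the rank 18 with the hepatocyte sum. The most similar genes to Apoe among 14720 were Alb (r = 0.99), the albumin gene, which is in that marker list, and Ambp (r = 0.98), another plasma protein gene of the liver. Lrp1 had r = 0.86 and rho = 0.88 with the same sum (permutation p = 2e-05 and 1e-05, adjusted p of 0.00169 and 0.000856), and its most similar genes were Serpina3n and Hp (r = 0.91 for each), of the acute phase. Lpl had r = 0.67 and Abca1 r = 0.65 with the sum, with permutation p of 1e-05 and 0.000390, and Lpl had r = 0.75 with the choroid plexus sum. By Pearson's r, 4 of 8 genes had an adjusted p under 0.05 with the hepatocyte sum, 2 with choroid plexus, and 0 with macrophages, platelets or erythroid cells. The share of all genes with such a p is not given here, so these counts do not set the 8 genes apart. With the hepatocyte sum, Abca1 had a permutation adjusted p of 0.0129 at the rank 499 of 14720 genes by r. Clu had r = 0.39 with that sum over all 21 libraries (permutation p = 0.0834). Its r was 0.77 without the 2 farthest libraries and 0.24 with group means removed. Plin2 and Npc2 had r = 0.00 and -0.13 with the hepatocyte sum (permutation p = 0.998 and 0.586), and Plin2 was most like Ctss (r = 0.81). With the erythroid sum Plin2 had r = -0.56 (permutation p = 0.00821, adjusted p = 0.179), and 0.04 with group means removed.

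The hepatocyte sum, with all 6 markers detected, ranged from 2556 to 6770 CPM in healthy rats, 1048 to 27514.5 CPM in controls at 4 days, 5761 to 19965 CPM at 10 days and 4145 to 37248 CPM at 31 days. The part of the marker lists in the plasma differences was not tested.

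With hNSCs, plasma Apoe was at 2480, 7217 and 7568 CPM at 4 days, at 424, 4704 and 5419 CPM at 10 days and at 639, 749 and 2786 CPM at 31 days, and each range overlapped that of its control group. Lrp1 was at 63.6, 83.5 and 195 CPM at 31 days with hNSCs, against 127, 419 and 488 CPM in controls, a log2 fold change of -1.59 ± 0.61 (edgeR adjusted p = 0.522). The hepatocyte sum in these groups was 1676 to 11108 CPM with hNSCs and 4145 to 37248 CPM in controls. The hemoglobin share in the same groups was 19.2% to 24.8% with hNSCs and 5.98% to 15.2% in controls. Over the 21 plasma libraries, Lrp1 had r = -0.66 with the erythroid sum (permutation p = 0.00128, adjusted p = 0.0652), and -0.60 with group means removed. The part of either in the Lrp1 difference was not tested. Plin2 at 10 days was at 70.9, 82.1 and 85.9 CPM with hNSCs and at 105, 133 and 151 CPM in controls, groups that do not overlap, beside 2.38% of all genes, with a log2 fold change of -0.70 ± 0.38 (edgeR adjusted p = 0.834). edgeR called 0 of 8 genes at each day and for the mean, beside 0.00679% of all genes at 4 days and 0.0% in the other 3 comparisons. At an unadjusted p under 0.05, 1 of 8 was lower at 31 days, Lrp1, beside 6.43% of all genes, and 0 of 8 passed in the others. DESeq2 called 0 of 8 in all 4, beside 6.06%, 7.48%, 10.7% and 9.1%. The effect at 31 days minus that at 4 days was lower at an unadjusted p under 0.05 for 1 of 8, Lrp1, at -1.96 ± 0.86 (edgeR adjusted p = 0.442), beside 7.57% of all genes, and edgeR called 0 of 8 for either later day, beside 0.00679%. The means over days lay between -0.64 ± 0.82 (Abca1) and -0.11 ± 0.38 (Clu).

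The third question was how plasma EVs compare with brain EVs of the same rats, with the rat as a block over 42 libraries. edgeR called 7 of 9 genes, 3 higher and 4 lower in plasma, beside 48.3% of 16945 genes tested, 21.1% higher and 27.1% lower, and DESeq2 called 7 of 9, beside 63.8%. Apod was almost absent from plasma EVs. It had 10478 counts over the 21 brain libraries and 2 over the 21 plasma libraries, both in 1 control rat at 10 days, or 97.3 against 0.00444 pooled CPM, a ratio of 21906.5 (95% interval 6064 to 180889, exact Poisson, counting error only).

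The efflux pumps and the uptake receptor were lower in plasma EVs on the CPM scale. Plasma against brain, the log2 fold change was -3.93 ± 0.56 for Abca1 (edgeR adjusted p = 7.29e-06), -2.27 ± 0.58 for Abcg1 (edgeR adjusted p = 0.00266) and -1.75 ± 0.24 for Lrp1 (edgeR adjusted p = 5.62e-06). On the log2(FPKM + 1) scale Abca1 kept its sign at -0.37, while Abcg1 and Lrp1 turned to 0.13 and 0.35, with the median of all genes on that scale at 1.34. The CPM values here and below were scaled within each tissue. The fold changes came from a joint fit of both tissues, so ratios of these CPM values need not match them. Lrp1 ranged from 610 to 1898 CPM in brain EVs and from 63.6 to 682 CPM in plasma EVs. Abca1 ranged from 78.3 to 816 CPM in brain EVs and from 0 to 112 CPM in plasma EVs.

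Plin2, Lpl and Clu were higher in plasma EVs on both scales, but on the FPKM scale most genes were higher too. On log2(FPKM + 1), limma called 6133 of 7924 genes higher in plasma, with a median of 1.34, so that scale adds little here. Plin2 was at 0 to 119 CPM, median 18.4, in brain EVs and at 52.0 to 308 CPM, median 107, in plasma EVs, a log2 fold change of 3.31 ± 0.49 (edgeR adjusted p = 1.16e-05). Lpl had a median of 11.1 CPM in brain EVs and 44.4 CPM in plasma EVs, a log2 fold change of 3.28 ± 0.84 (edgeR adjusted p = 0.00279), and Clu had 202 and 277 CPM, a log2 fold change of 0.76 ± 0.22 (edgeR adjusted p = 0.00750). Apoe and Npc2 were not called, at -0.34 ± 0.38 (edgeR adjusted p = 0.552) and 0.23 ± 0.36 (edgeR adjusted p = 0.736). On the log2(FPKM + 1) scale both were higher in plasma, Apoe at 1.77 and Npc2 at 1.74. Without the 7 rats numbered replicate 1 or the 7 numbered replicate 3, the calls of Abcg1 and Lpl were lost, and without those numbered 2 that of Npc2 was gained at 1.19.

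For the difference of the stroke effect between plasma and brain EVs, edgeR called 0 of 9 at 4, 10 and 31 days, beside 0.0236%, 0.0% and 0.0% of all genes, and none passed an unadjusted p under 0.05. The smallest unadjusted p values belonged to Plin2 and Npc2, whose plasma minus brain differences in the log2 stroke effect were -3.30 ± 1.78 for Plin2 at 4 days and -2.39 ± 1.26 for Npc2 at 31 days.

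The rats also allowed a comparison of the same gene in both compartments. Over 21 rats, the correlation of log2 CPM between brain and plasma was r = 0.31 and rho = 0.47 for Apoe (permutation p = 0.175 and 0.0315, adjusted p of 1.00 and 0.856), r = 0.33 and rho = 0.29 for Clu and r = 0.21 and rho = 0.50 for Abca1 (permutation p = 0.374 and 0.0224, adjusted p of 1.00 and 0.814). For the other 5 genes r lay between -0.23 (Npc2) and 0.16 (Plin2). None of 8 genes passed the adjusted threshold by either measure, nor did any of 12885 genes by Pearson's r, whose median over all genes was -0.02. With group means removed r was 0.23 for Apoe, -0.04 for Clu and -0.47 for Abca1, and without the 2 rats farthest from the brain median it was 0.22, 0.25 and 0.26.

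The other genes of lipid transport, 106 in 7 lists, set these 9 in context. In brain EVs 81 of them were tested and 0 were called by edgeR in any comparison, beside at most 0.861% of all genes. At 4 days 9 of 81 were higher and 6 lower at an unadjusted p under 0.05, beside 8.52% and 6.31% of all genes. Their median log2 fold change was -0.08, against 1.58 for the 9. Among them Msr1, a scavenger receptor, had a log2 fold change of 6.92 ± 1.83 (edgeR adjusted p = 0.0716), Fabp5, a fatty acid binding protein, 2.00 ± 0.67 (edgeR adjusted p = 0.153), and Lrp1b, a receptor related to Lrp1, -1.85 ± 0.45 (edgeR adjusted p = 0.0520). These 3 were named after their values were seen. Msr1 is also in the macrophage marker list and was low, at 0 to 115 CPM over the brain libraries. Its median was 6.28 CPM, and it had counts in 17 of 21 libraries. The 20 genes of sterol synthesis and turnover had a median of -0.80, with 0 higher and 2 lower at an unadjusted p under 0.05, beside the same shares of all genes. In plasma EVs 98 of the 106 were tested and 0 were called in any comparison within plasma, beside at most 0.387% of all genes.

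Between compartments, 34 of 103 tested were called higher in plasma EVs and 26 higher in brain EVs, beside 21.1% and 27.1% of all genes. All 13 other apolipoproteins were called higher in plasma EVs. Apob, the structural protein of low-density lipoprotein, had a median of 265 CPM in plasma EVs and no count in any of 21 brain libraries, and neither did Apoc3, at a median of 42.2 CPM in plasma EVs. Cd36, a fatty acid and scavenger receptor, had a median of 82.3 CPM in plasma EVs and 0 in brain EVs. Higher in brain EVs were Lrp8, a neuronal Apoe receptor, at a median of 195 against 2.04 CPM, and Cyp46a1, the neuronal enzyme that clears cholesterol from brain, at 71.1 CPM against no count in any plasma library.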

How the data were processed

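EV mRNA libraries of 21 rats were analysed from the counts per gene that the authors deposited, with reads aligned to Rnor_6.0, and from the FPKM values the authors deposited, whose denominator is not given in the sources used here. The 7855 transcripts without a gene name were left out. Counts were filtered by filterByExpr of edgeR 4.0.16 (R 4.3.3), scaled by TMM and fitted by tissue over all 7 groups with its quasi-likelihood test. Plasma and brain were compared with the rat as a block, using 16945 genes. Log2 CPM used a prior count of 1. Standard errors are the fold change over the square root of F. Genes were called at an adjusted p below 0.05 when they also differed by more than 1.5-fold. DESeq2 1.42.0, limma 3.58.1 on log2(FPKM + 1), other scalings and left-out libraries were alternatives, and the marker correlations were added after seeing the data. The fit was tested on simulated counts with 200 genes changed. The 9 genes, the lists and the naming rule (members, up to 3 called genes per list and direction, the 2 most alike genes) were chosen with earlier results of these data known. Rats are separate animals. Permutation tests were two-sided.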

Additional observations from a re-analysis of the deposited data

How the results depend on the processing

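Counts of the 9 genes called against healthy rats in brain EVs depended on the setting. At 4 days the count of 0 became 1 with no filter on low counts, 2 with the replicate block, 3 with DESeq2, 5 with only the groups compared, and 4 with limma on log2(FPKM + 1) or log2(FPKM + 0.1). At 10 days the count of 1 became 2 with no filter, 3 with DESeq2, and 0 with the replicate block, with unannotated transcripts kept, with only the groups compared and with limma at either pseudocount, and it ranged from 0 to 4 when 1 library was left out. At 31 days the count of 0 became 6 with limma at either pseudocount. For the mean of the days the count of 0 became 1 with the replicate block, 4 with DESeq2 and 5 with limma at either pseudocount, and ranged from 0 to 4 with 1 library left out, the 4 arising without control replicate 1 at 10 days. At 31 against 4 days the count of 0 became 1 with limma on log2(FPKM + 1) in brain EVs and 1 with DESeq2 in plasma EVs. In plasma EVs the hNSCs effect at 31 days and its mean over days ranged from 0 to 1, the call without hNSCs replicate 3 at 31 days being Abca1, whose other 2 libraries hold no count. Plasma against brain ranged from 5 to 8 called with 1 replicate number left out. The cause of these changes was not tested.

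Of 2767 values of single genes under alternatives, 173 changed sign, and 8 of these were called in at least 1 of the fits compared. Lrp1 in brain EVs at 31 days turned to 1.16 (limma on log2(FPKM + 1)) and 1.45 (log2(FPKM + 0.1)). For plasma against brain, the same 2 settings gave 1.77 and 1.77 for Apoe, 0.13 and 0.15 for Abcg1, and 0.35 and 0.44 for Lrp1. On the FPKM scale the median of all genes shifted by 1.33 and 2.07 in the first comparison and by 1.34 and 2.34 in the second. The replicate numbers do not pair rats: the correlation of same-numbered deviations had a median of -0.0009 in brain and -0.012 in plasma. With 3 rats a group, changes of 4-fold were mostly missed in simulated counts.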
